A study of Mus musculus with 12 samples.

Results

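Neural progenitor cells (NPCs) derived from 2 hybrid mouse embryonic stem (ES) cell lines were compared over the autosomes: 4 clones grown from line F1-21.6, which is XX, against 4 clones grown from line F1-23, which is XY. All cells carry 1 genome copy of the strain 129Sv and 1 of Cast/EiJ, so RNA reads over strain variants show which allele they came from. The members are the 14415 autosomal genes of a table of 14899 genes, and the 484 X-linked genes were left out of the comparison. Clones 129, C2, G4 and E1.2 form the XX set. Clones mC3, mE6, mB4 and mG3 form the XY set. Clone 129 shares its name with the 129 allele, so it is called clone 129 throughout. Each clone entered with 1 library of polyadenylated RNA, and each ES line with 1 library, given beside the clones as a value without replicates. Repeat libraries of C2 and mC3 were not used. The ES lines had been kept on an inactivated layer of mouse embryonic fibroblasts, with serum and leukaemia inhibitory factor, and the labels give no further treatment of any group. All clones of a set descend from 1 ES line, so the spread between clones is a spread within that line. The library names of the XX clones have another prefix than those of the XY clones and of both ES lines. Line, sex chromosomes and library set therefore coincide and cannot be told apart, and no within-set value of the difference exists.

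NPCs of this kind are radial-glia-like stem cells that divide in culture and can form neurons and glia. In the embryo, the position of a neural progenitor along the head-to-tail axis is recorded by transcription factors. Forebrain cells express genes such as Six3 and Otx1, the midbrain and isthmus use the Engrailed genes and Gbx2, and hindbrain and spinal cord use the Hox genes. Hox genes lie in 4 clusters, HoxA to HoxD, and the higher numbered genes of a cluster are used further toward the tail. Wnt, FGF and retinoic acid signals set this posterior character, while Hedgehog and BMP signals set ventral and dorsal character. In hybrid cells a gene's allele use can also differ between clones, since some genes are expressed from 1 allele in a way that a clone inherits.

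Total counts per NPC library ran from 66611144 to 119266777, and those of the ES libraries were 61375911 and 65171172. A count here is an observation that tells the alleles apart, and levels are given as CPM, counts scaled to a common library total, which compare 1 gene between libraries but not genes with each other. Marker genes of neural progenitors were found in every clone, with summed levels of 9469 to 12950 CPM in XX clones and 13400 to 15812 CPM in XY clones. Pluripotency markers summed to at most 5.89 CPM and neuronal markers to at most 51.5 CPM in any clone. Of the other lists, astrocyte markers reached 2017 CPM in clone E1.2 against 286 to 546 CPM in the other XX clones and 463 to 474 CPM in XY clones. Fibroblast and mesenchyme markers summed to 566 to 1822 CPM in XX clones, highest in E1.2, and to 367 to 561 CPM in XY clones. In that sum Fn1 alone was at 379 to 1456 CPM in XX and 132 to 346 CPM in XY clones. Prrx1 averaged 86.1 and 87.2 CPM and Col1a1 0.393 and 0.337 CPM in XX and XY clones, both with overlap. Dcn and Lum, like Fn1, were higher in XX clones without overlap, and both were low in most clones and highest in E1.2. Of the 14 tested members of this list, 10 had a fitted change above 0 and 4 below. At unadjusted p under 0.05 in edgeR, 6 were higher in XX clones and 1 lower. The median log2 change of the list was 1.53, against 0.01 for all tested genes, so the shift was not in Fn1 alone. Endothelium and microglia markers summed to 7.35 to 16.9 CPM in XX and 3.45 to 5.80 CPM in XY clones. The progenitor, the fibroblast and the endothelium and microglia sums did not overlap between the line sets, and the part of any of them in the differences below was not tested. In bulk samples, fewer cells of a type and less RNA per cell cannot be told apart.

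Of 13153 autosomal genes with enough counts to test, 151 differed between the line sets, which is 1.15% (edgeR quasi-likelihood F test, Benjamini-Hochberg adjusted p under 0.05). Levels were higher in XX clones for 101 genes (0.768%) and lower for 50 (0.38%), and the median log2 change of all tested genes was 0.01. Of all tested genes, 23.7% had an unadjusted p under 0.05, and for 17.3% the clones of the sets did not overlap. None of the 151 overlapped, which adds nothing to the test because they were picked by p on these same values. With DESeq2, 1859 genes passed (14.2% of those given an adjusted p), 1052 higher and 807 lower, and all 151 were among them. With limma on log2(FPKM + 1), where both the test and the measure differ, 141 genes were higher and 349 lower, against 101 and 50. It called 99 of the 151 in the same direction. Lgr4, Acvrl1, Myo5b, Rpl7, Prkce, Gm53 and 2700086A05Rik, named below, were among those it did not call. The number of calls also depended on single clones. It was 457 without clone 129, 55 without C2, 19 without G4, 76 without E1.2, and 8, 7, 6 and 11 without mC3, mE6, mB4 and mG3. Only 4 of the 151 were called in all 8 of these fits, among them Hoxb2 and Hoxb3.

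**Figure D1:**
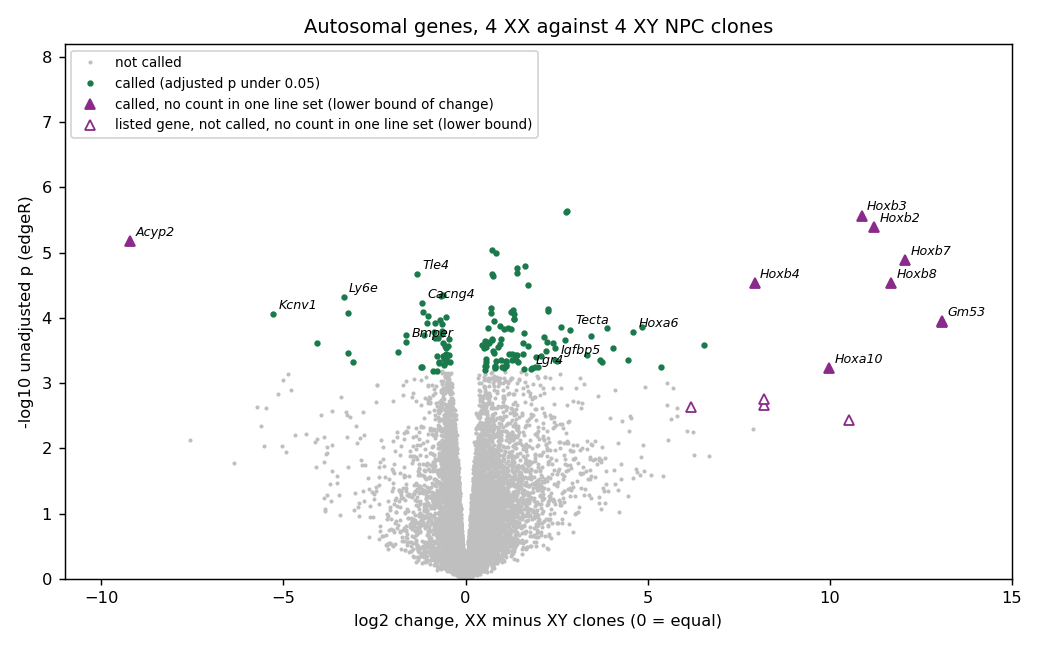
Each point is an autosomal gene, with the log2 change (XX minus XY clones) on the horizontal axis and -log10 of the unadjusted p on the vertical axis. Green points are called genes and triangles genes without a count in 1 line set at the lower bound of their change (filled where called); HoxB genes with Hoxa10 stand at the far right and Acyp2 at the far left, and genes without a count in 1 set that were neither called nor in a list are not drawn.

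The largest differences were in Hox genes. Of 27 Hox genes in the table, 15 had no count in any XY clone, among them all 8 HoxB genes and all 5 HoxC genes. All 8 HoxB genes had counts in all 4 XX clones. In the hindbrain and spinal cord list, 29 of 40 genes were in the table and 23 could be tested; 8 were higher in XX clones and none lower, against 0.768% of all tested genes higher. These were Hoxb2, Hoxb3, Hoxb4, Hoxb7, Hoxb8, the joined row of Hoxb9, Hoxa6 and Hoxa10. The median log2 change of the 23 tested genes was 4.61, with genes lacking counts in 1 set entered at their lower bound. DESeq2 called 15 of the 23 higher, against 14.2% of all genes called by it in either direction.

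The windows before the starts of Hoxb8 and Hoxb4 are shown because both genes had 0 counts in every XY clone and counts in every XX clone, and because no other HoxB gene matched the promoter table used. They come from RefSeq (GRCm38.p6, the 250 bases before the start on the plus strand), at chr11:96281655-96281904 for Hoxb8 and chr11:96318017-96318266 for Hoxb4, and this build is not that of the expression table. Capitals mark matches to TGATNNAT, a motif bound by Hox proteins together with Pbx partners, searched on both strands.
Hoxb8: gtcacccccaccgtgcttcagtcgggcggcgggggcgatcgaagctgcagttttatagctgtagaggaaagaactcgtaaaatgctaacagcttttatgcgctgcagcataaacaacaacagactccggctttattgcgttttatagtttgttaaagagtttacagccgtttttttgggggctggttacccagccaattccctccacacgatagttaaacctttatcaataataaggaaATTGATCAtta
Hoxb4: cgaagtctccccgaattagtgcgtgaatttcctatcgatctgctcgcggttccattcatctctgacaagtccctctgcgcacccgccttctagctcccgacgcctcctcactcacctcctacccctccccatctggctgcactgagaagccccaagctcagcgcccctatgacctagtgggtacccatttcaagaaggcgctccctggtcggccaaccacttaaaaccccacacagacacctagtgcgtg
Hoxb8 held 1 match and Hoxb4 none, and 7.68% of 32851 promoter windows of this length hold at least 1. The CG dinucleotide occurred 12 times in the Hoxb8 window and 14 times in that of Hoxb4, against a median of 6 over all windows. A match is a description of letters and says nothing on binding in these cells.

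The table's HoxB rows lie between chr11:96108893 and chr11:96215328 (mm9). Hoxb2 and Hoxb3, which are used from the anterior hindbrain backward, had the smallest adjusted p-values of the cluster. Hoxb2 was at 15.5, 14.9, 22.1 and 33.0 CPM in clones 129, C2, G4 and E1.2 and had no count in any XY clone. Taking 3 counts over the 4 XY clones as the floor, it was at least 2383-fold higher in XX clones (edgeR adjusted p = 0.011). Hoxb3 was at 14.8, 10.3, 21.9 and 20.3 CPM in the XX clones and at 0 in all XY clones, at least 1873-fold higher (edgeR adjusted p = 0.00927). Both kept their call in each of the 8 fits that left out 1 clone. Hoxb4, at 1.68, 1.29, 2.57 and 3.26 CPM in XX clones and 0 in XY clones, was at least 245-fold higher (edgeR adjusted p = 0.022). Its level was low, and its call held in 3 of the 8 fits that left out 1 clone.

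The more posterior HoxB genes showed the same arrangement with a wider spread among XX clones. Hoxb7 was at 40.7, 15.2, 44.1 and 54.0 CPM in clones 129, C2, G4 and E1.2, at least 4290-fold over the XY clones (edgeR adjusted p = 0.019). Hoxb8 was at 17.9, 13.04, 46.1 and 41.7 CPM, at least 3307-fold over the XY clones (edgeR adjusted p = 0.022). In both genes C2 was the lowest XX clone. The row that joins Hoxb9 with Gm53 and Mir196a-1 was at 19.5, 165, 67.5 and 56.9 CPM in the same order, so here C2 was the highest. A separate Gm53 row overlaps it and holds nearly the same values, so the pair is 1 measurement and the share of Hoxb9 in it cannot be read. Hoxb5 (0.117 to 1.22 CPM) and Hoxb6 (0.215 to 5.70 CPM) were also at 0 in all XY clones but missed the threshold, with edgeR adjusted p-values of 0.068 and 0.067. In the ES lines, Hoxb7 had 9 counts in the XX line and 42 in the XY line, Hoxb8 had none, and the row of Hoxb9 had 245 and 128.

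HoxA genes separated by position. Hoxa6 was at 2.23, 19.8, 22.2 and 14.2 CPM in clone 129 and its fellow XX clones C2, G4 and E1.2, against 0.737, 0.791, 0.479 and 0.383 CPM in mC3, mE6, mB4 and mG3. Clone 129 was the lowest XX clone and still lay above every XY clone, and the log2 change was 4.61 (SE 0.70, edgeR adjusted p = 0.037). The antisense noncoding gene 2700086A05Rik covers Hoxa6 and differed by 4.05 on the log2 scale (SE 0.67, edgeR adjusted p = 0.039); the sources used here do not say that strand was counted, so the 2 cannot be told apart. Hoxa10 was at 1.49, 16.2, 15.4 and 3.34 CPM in the XX clones and 0 in the XY clones, at least 1015-fold higher (edgeR adjusted p = 0.048). The Hoxa6 and the Hoxa10 call each held in 1 of the 8 fits that left out 1 clone. Hoxa9, joined with Mir196b, was at 61.6, 58.3 and 39.4 CPM in C2, G4 and E1.2 but at 0.072 CPM in clone 129 and 0 in all XY clones, and the count filter removed it from the test. Clone 129 therefore stood apart from the other XX clones in HoxA but not in HoxB.

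Other HoxA genes did not pass. Hoxa3 was at 6.66 to 28.5 CPM in XX clones and 3.99 to 5.37 CPM in XY clones without overlap (edgeR adjusted p = 0.052), and its sign turned on the FPKM scale. The Hoxa3 row (chr6:52119060-52163066, mm9) spans the rows of Hoxa4, Hoxa5 and Hoxa6, so its counts cannot be told apart from theirs, and in E1.2 both Hoxa3 (9.69%) and Hoxa6 (2.90%) had a low 129 share. Hoxa7 was at 0.362 to 8.90 CPM in XX and 0.033 to 0.248 CPM in XY clones (edgeR adjusted p = 0.052). Hoxa4 had a fitted change below 0, at 0.587 to 1.92 CPM in XX and 1.66 to 2.41 CPM in XY clones (edgeR adjusted p = 0.222). Among HoxC genes, Hoxc8 was at 0.246, 0.940, 4.05 and 5.29 CPM in the XX clones and 0 in the XY clones, and missed the threshold (edgeR adjusted p = 0.061). The other 4, Hoxc4, Hoxc5, Hoxc6 and Hoxc10, were too low to test.

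HoxD genes had counts in both line sets. Hoxd8 was at 13.8, 11.9, 11.1 and 9.57 CPM in XX clones and 12.1, 8.48, 6.49 and 13.1 CPM in XY clones, and the fitted log2 difference was 0.21 (SE 0.24, edgeR adjusted p = 0.624). Hoxd9 ranged from 2.25 to 11.8 CPM in XX and from 2.96 to 6.02 CPM in XY clones (edgeR adjusted p = 0.590). Both genes overlapped between the sets, although mE6 and mB4 lay below every XX clone in Hoxd8. Hoxd3 was at 2.76, 3.85, 5.23 and 1.69 CPM in XX clones and 2.18, 1.13, 0.619 and 0.890 CPM in XY clones, with overlap, and did not pass in edgeR (log2 difference 1.49, SE 0.48, adjusted p = 0.128) but did in DESeq2 (adjusted p = 0.0287). XY clones thus held Hox transcripts, and the rows that name a Hox gene summed to 18.4 to 28.3 CPM against 150.3 to 383 CPM in XX clones. That sum includes the joined row of Hoxb9 and the Hoxa3 row, so it may hold other transcripts and enter some counts more than once. Allele use of Hox genes varied by clone: in mE6 99.0% and in mB4 0.217% of Hoxd8 counts came from the 129 allele, and in E1.2 only 2.90% of Hoxa6 counts did.

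**Figure D2:**
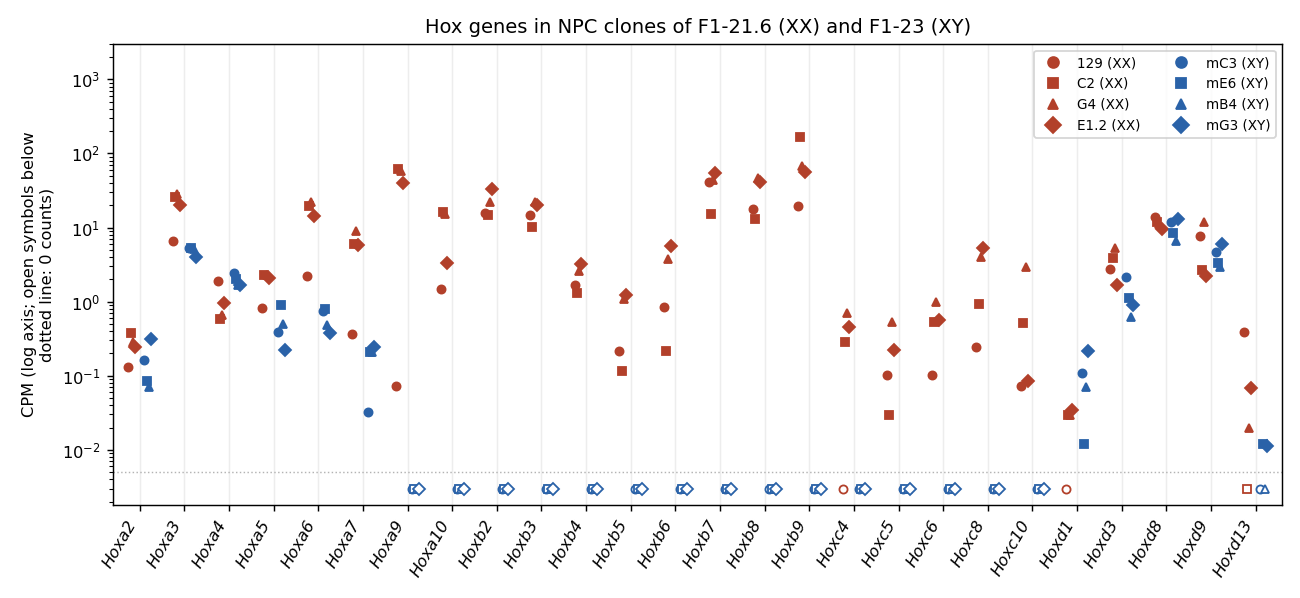
Level of Hox genes (CPM, log axis) in each NPC clone, XX clones in red and XY clones in blue; open symbols under the dotted line are clones with 0 counts. The 15 genes with 4 open blue symbols have no count in any XY clone, while Hoxd8 and Hoxd9 lie at about the same level in both sets.

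Regional genes anterior to the Hox domain went in both directions, and none passed the test. Of the forebrain list 14 of 31 genes were in the table and 9 were tested, of the midbrain and isthmus list 6 of 13 and 4, and 0 were called in either at adjusted p 0.05, against 3 and 2 at unadjusted p under 0.05 and 3 and 2 by DESeq2. Over all tested genes the shares were 23.7% at unadjusted p under 0.05 and 14.2% by DESeq2. Of the tested forebrain genes 5 had a fitted change above 0 and 4 below. Their median was 0.18, against 0.01 for all tested genes, and all 4 midbrain and isthmus genes lay below 0. Nr2f2, a nuclear receptor of caudal forebrain and other tissues, was higher in XX clones at unadjusted p under 0.05, at 10.9, 10.3, 11.4 and 19.5 CPM against 7.21, 7.998, 6.69 and 8.44 CPM in XY clones. The sets did not overlap (edgeR adjusted p = 0.108, DESeq2 adjusted p = 0.0186). Eomes, a factor of intermediate progenitors, was low, at 0 to 0.148 CPM in XX and 0.296 to 1.33 CPM in XY clones (edgeR adjusted p = 0.098). Zic1, a zinc finger factor of dorsal and anterior neural cells, was at 0.0724, 0, 0 and 1.83 CPM in XX clones and 28.0, 18.9, 19.6 and 23.4 CPM in XY clones. The sets did not overlap, but the XX clones differed among themselves and the adjusted p was 0.109 in edgeR and 0.0315 in DESeq2. Its neighbour Zic4 gave 0 to 0.541 CPM in XX and 1.68 to 3.53 CPM in XY clones (edgeR adjusted p = 0.139). En2, an Engrailed gene of the midbrain and cerebellar territory, was at 7.54, 1.72, 1.64 and 0.567 CPM in XX clones and 42.7, 18.5, 21.7 and 27.6 CPM in XY clones. Again the sets did not overlap, and the log2 change of -3.27 (SE 0.77) missed the threshold in edgeR (adjusted p = 0.072) but not in DESeq2 (adjusted p = 5.55e-05). En1 overlapped between the sets. Gbx2, which marks the anterior hindbrain side of the isthmus, was high in all clones, at 138 to 225 CPM in XX and 215 to 327 CPM in XY clones (edgeR adjusted p = 0.130). Six3 and Otx1 had at most 38 counts in any clone and were not tested. Pax6 and Lhx2, which are used in forebrain and other progenitors, overlapped between the sets.

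Along the ventral to dorsal axis, 0 of 9 tested ventral genes and 0 of 9 tested dorsal genes were called, against 2 and 3 at unadjusted p under 0.05 and 1 and 3 by DESeq2. The shares over all tested genes were 23.7% at unadjusted p under 0.05 and 14.2% by DESeq2. Nkx6-1, a ventral factor that responds to Hedgehog signals, was at 5.24, 6.97, 40.3 and 0.335 CPM in XX clones and had no count in XY clones. Clone G4 was far above the other XX clones, E1.2 was the lowest, and the edgeR adjusted p was 0.080 (DESeq2 adjusted p = 4.93e-08). Olig2, a ventral factor also typical of NPC cultures, was at 231 to 319 CPM in XX and 287 to 353 CPM in XY clones, overlapping (edgeR adjusted p = 0.360). Pax7, a dorsal factor, varied from 12.98 to 505 CPM among XX clones and from 226 to 410 CPM among XY clones.

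Among signalling genes, the Wnt list and the BMP and TGF-beta list held 3 called genes in all, and the FGF and ERK, Notch, Hedgehog and retinoic acid lists held none. In the Wnt list, 1 of 37 tested genes was higher and 0 were lower, against 0.768% and 0.38% of all tested genes. The median log2 change was 0.08 against 0.01 for all genes. At unadjusted p under 0.05 there were 8 of the 37, against 23.7% of all tested genes. Lgr4, a receptor for R-spondins that strengthens Wnt signals, was at 15.1, 5.90, 11.05 and 13.4 CPM in XX clones and 2.12, 3.79, 3.29 and 3.97 CPM in XY clones. The sets did not overlap, and the level was 3.45-fold higher in XX clones (log2 change 1.78, SE 0.33, edgeR adjusted p = 0.048). This call was lost without the count filter, with autosomes alone in the fit, on the FPKM scale and in 6 of the 8 fits that left out 1 clone. The Wnt receptor Fzd7 was at 38.8 to 80.4 CPM in XX and 18.9 to 27.7 CPM in XY clones, just outside the threshold (edgeR adjusted p = 0.051). The ligand Wnt3 was at 0.206 to 1.23 CPM in XX and 1.62 to 4.48 CPM in XY clones (edgeR adjusted p = 0.115).

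In the BMP and TGF-beta list, 0 of 38 tested genes were higher and 2 lower, against 0.768% and 0.38% of all tested genes. The median log2 change was 0.27 against 0.01 for all genes, with 26 of the 38 above 0. At unadjusted p under 0.05 there were 8 of the 38, against 23.7% of all tested genes. Bmper, a secreted regulator of BMP signals, was at 7.09, 10.3, 11.1 and 16.1 CPM in XX clones and 36.6, 42.2, 33.6 and 26.1 CPM in XY clones. It was 3.10-fold higher in XY clones without overlap (log2 change -1.63, SE 0.26, edgeR adjusted p = 0.039). The Bmper call held in 2 of the 8 fits that left out 1 clone. The receptor gene Acvrl1 was also lower in XX clones but under 0.4 CPM in every clone. The activin subunit gene Inhba was at 0.752 to 2.07 CPM in XX and 0.0563 to 0.271 CPM in XY clones (edgeR adjusted p = 0.051), and the BMP antagonist Chrd at 4.04 to 5.23 CPM and 1.82 to 3.12 CPM (edgeR adjusted p = 0.065). The other lists had 0 calls in edgeR: 31 FGF and ERK genes, 17 Notch, 15 Hedgehog and 10 retinoic acid genes were tested, with 4, 4, 4 and 1 at unadjusted p under 0.05 and 3, 3, 2 and 0 by DESeq2. Over all tested genes these shares were 23.7% at unadjusted p under 0.05 and 14.2% by DESeq2. Notch1, the main Notch receptor of progenitors, was at 381 to 500 CPM in XX and 212 to 328 CPM in XY clones (edgeR adjusted p = 0.067). The receptor tyrosine kinase gene Kit was at 0.188 to 1.42 CPM in XX and 3.48 to 5.04 CPM in XY clones (edgeR adjusted p = 0.065).

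**Figure D3:**
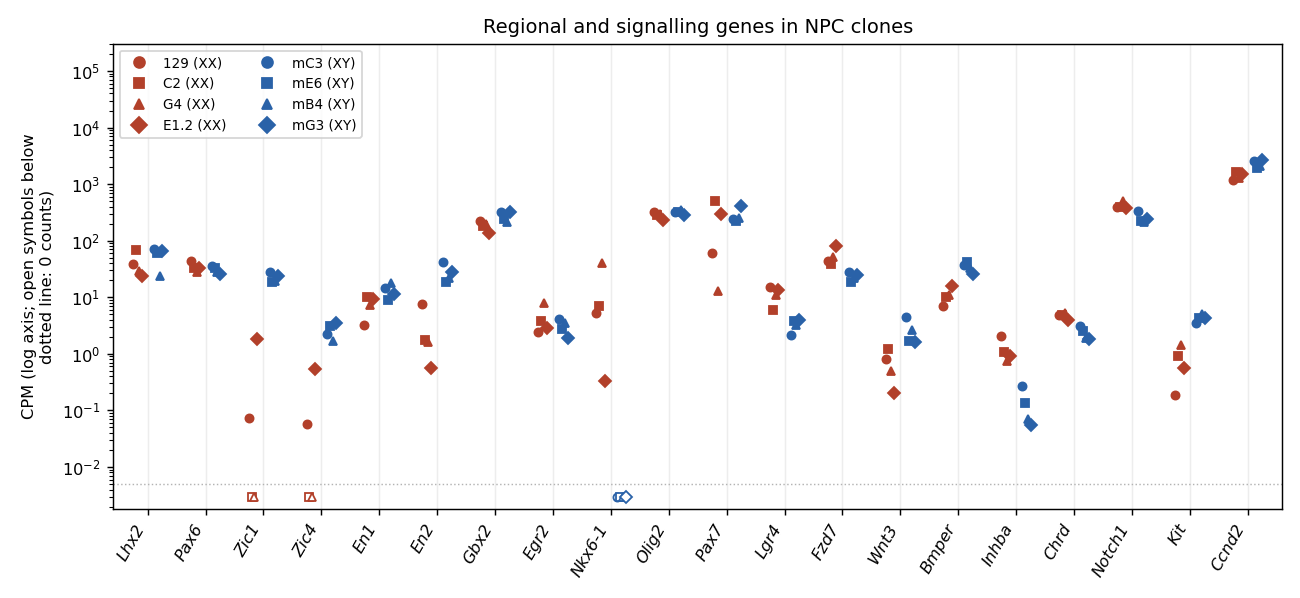
Level of 20 regional and signalling genes (CPM, log axis) in each clone, drawn as for the Hox genes. Zic1, Zic4 and En2 are higher in every XY clone than in any XX clone, Nkx6-1 has counts in XX clones only, and only Lgr4 and Bmper among the genes shown passed the test.

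Outside the lists, and among genes with a single symbol at 10 CPM or more, Myo5b, Agpat9 and Tecta followed the Hox genes, Gm53 and 2700086A05Rik in size of increase. Tecta, which encodes the matrix protein alpha-tectorin, was at 74.0, 46.5, 36.8 and 28.2 CPM in XX clones and 3.04, 5.23, 8.11 and 9.18 CPM in XY clones. That is 7.26-fold higher without overlap (log2 change 2.86, SE 0.43, edgeR adjusted p = 0.036). Agpat9, an enzyme of glycerolipid synthesis, was at 14.98, 11.9, 32.6 and 23.3 CPM in XX clones and 0.954, 0.779, 3.86 and 0.901 CPM in XY clones, 12.8-fold higher (SE 0.64 on the log2 scale, edgeR adjusted p = 0.044). Among XY clones mB4 was the highest. Myo5b, a vesicle motor, was at 5.997 to 28.5 CPM in XX and 0.585 to 1.55 CPM in XY clones, 14.8-fold higher (edgeR adjusted p = 0.036).

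A further 5 of the 101 higher genes were chosen after their values were seen and are not a tested group. Spon1, which encodes the floor plate and matrix protein F-spondin, was at 706, 1164, 1319 and 1814 CPM in XX clones and 176, 264, 403 and 416 CPM in XY clones (log2 change 1.99, SE 0.36, edgeR adjusted p = 0.047). Igfbp5, an insulin-like growth factor binding protein, was at 307 to 1077 CPM in XX and 70.2 to 119 CPM in XY clones (log2 change 2.46, SE 0.43, edgeR adjusted p = 0.044). Fras1, an extracellular matrix protein, was at 292 to 903 CPM and 75.5 to 120.5 CPM (log2 change 2.45, SE 0.40, edgeR adjusted p = 0.039). The sets did not overlap for any of these. Ptgds, prostaglandin D2 synthase, gave the tightest of these groups, at 51.1, 46.7, 37.2 and 55.9 CPM in XX and 10.9, 19.6, 13.2 and 14.9 CPM in XY clones (log2 change 1.704, SE 0.21, edgeR adjusted p = 0.023). Sdk2, a synaptic adhesion protein, differed by 2.74 on the log2 scale (SE 0.43, edgeR adjusted p = 0.039).

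Among genes lower in XX clones, Ly6e had the largest change of those at 10 CPM or more. This gene encodes a GPI-anchored surface protein and was at 8.34, 19.2, 11.1 and 26.1 CPM in XX clones and 181, 240, 114 and 122 CPM in XY clones. It was 10.2-fold higher in XY clones (log2 change -3.35, SE 0.43, edgeR adjusted p = 0.029), while both ES lines were higher still, at 720 CPM in F1-21.6 and 680 CPM in F1-23. Tle4, a corepressor of the Groucho family that acts with Wnt and Notch target repressors, was at 60.4, 57.7, 46.4 and 49.2 CPM in XX and 127, 110, 133 and 170 CPM in XY clones (log2 change -1.34, SE 0.15, edgeR adjusted p = 0.019). The call held in 5 of 8 fits that left out 1 clone. Cacng4, an auxiliary subunit of AMPA receptors, was at 118 to 194 CPM in XX and 347 to 413 CPM in XY clones (log2 change -1.19, SE 0.16, edgeR adjusted p = 0.033).

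Of the other named decreases, Celf5, an RNA-binding protein of neural cells, was 2.25-fold higher in XY clones, Dixdc1, a DIX domain protein of Wnt signalling, 2.20-fold, and Zfp365 2.08-fold. Rpl7, a ribosomal protein, was 2.04-fold higher in XY clones, at 4.91 to 6.37 CPM in XX and 10.2 to 12.2 CPM in XY clones, and Prkce, a protein kinase C gene, 1.84-fold. Ribosomal protein genes have many processed copies, so the reads behind Rpl7 could be split among them. Jmjd5, also lower in XX clones, is given with its allele use.

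A further 7 of the 50 lower genes, chosen after their values were seen and not a tested group, are given here. Actr2, a subunit of the actin-nucleating Arp2/3 complex, was at 53.0, 51.8, 56.9 and 48.1 CPM in XX clones and 81.5, 78.4, 90.6 and 84.7 CPM in XY clones (log2 change -0.68, SE 0.09, edgeR adjusted p = 0.029). Arpc5 of the same complex and Cdc42, a GTPase that acts on it, had log2 changes of -0.61 and -0.55. Stx12, an endosomal SNARE, was at 36.7 to 40.6 CPM in XX and 54.7 to 62.04 CPM in XY clones (log2 change -0.61, SE 0.08, edgeR adjusted p = 0.029), and the traffic genes Rab1, Rab14 and Vps36 had log2 changes of -0.46, -0.54 and -0.54.

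Acyp2, an acylphosphatase gene named after its values were seen, reversed the Hox pattern: it had no count in any XX clone and was at 4.66, 4.41, 6.40 and 2.84 CPM in the XY clones. It was at least 593-fold higher in XY clones (edgeR adjusted p = 0.015), with 0.686 CPM in the XX ES line and 1.04 CPM in the XY ES line. Kcnv1, a potassium channel modifier also named afterwards, was at 0.0145 to 0.119 CPM in XX and 0.856 to 3.27 CPM in XY clones, 39.0-fold higher in XY clones (edgeR adjusted p = 0.034).

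Cell cycle and cell type lists held no called gene. For the counts below, the shares over all tested genes were 23.7% at unadjusted p under 0.05 and 14.2% by DESeq2. Of 31 cell cycle genes tested none was called in edgeR, beside 7 at unadjusted p under 0.05 and 5 by DESeq2. A fitted change below 0 was found for 25 of the 31, and the median log2 change was -0.30 against 0.01 for all tested genes. Ccnd2, cyclin D2, was at 1198 to 1630.4 CPM in XX and 1941 to 2697 CPM in XY clones (edgeR adjusted p = 0.065). None of 16 progenitor, 10 neuron, 9 astrocyte, 6 oligodendrocyte lineage, 14 fibroblast, 4 neural crest, 4 pluripotency, 3 endoderm and 3 endothelium or microglia genes was called in edgeR, beside 5, 3, 3, 2, 7, 0, 1, 1 and 1 at unadjusted p under 0.05 and 3, 2, 3, 1, 3, 0, 1, 1 and 1 by DESeq2. Neither was any of 34 imprinted, 17 Eph and ephrin, 11 hypoxia or 9 immediate early genes, beside 12, 4, 3 and 3 at unadjusted p under 0.05 and 7, 3, 1 and 2 by DESeq2. Aqp4, the astrocyte water channel, was at 1.94, 8.59, 21.1 and 173 CPM in XX clones and 0.596 to 1.295 CPM in XY clones (edgeR adjusted p = 0.075). Clone E1.2 gave most of that difference in means.

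Allele use was compared with the 129 share, the percentage of a gene's counts that came from the 129 allele. Of 11253 autosomal genes with at least 20 counts in each of the 8 clones, 3 differed between the line sets (0.0267%; edgeR quasi-likelihood test of the allele by line term, adjusted p under 0.05), all with a larger 129 share in XX clones. The same number passed in limma on log2 allele ratios. At unadjusted p under 0.05 there were 983 genes (8.74%), and for 617 genes (5.48%) the clones of the sets did not overlap. The median difference of mean shares was 1.93 points without sign, and 231 genes differed by at least 20 points.

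The windows before the starts of Sash1 and Rgs16, which had the largest differences of these 3 genes, are given because the difference lies between the alleles of 1 gene and these are the reference letters of its start region. They come from RefSeq (GRCm38.p6), at chr10:8886071-8886320 on the minus strand for Sash1 and chr1:153740103-153740352 on the plus strand for Rgs16, each 250 bases before the start and printed 5′ to 3′.
Sash1: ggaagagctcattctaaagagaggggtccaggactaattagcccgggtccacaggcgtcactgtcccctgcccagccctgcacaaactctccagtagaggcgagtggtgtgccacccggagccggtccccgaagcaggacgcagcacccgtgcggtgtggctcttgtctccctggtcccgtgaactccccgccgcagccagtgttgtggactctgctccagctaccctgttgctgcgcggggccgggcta
Rgs16: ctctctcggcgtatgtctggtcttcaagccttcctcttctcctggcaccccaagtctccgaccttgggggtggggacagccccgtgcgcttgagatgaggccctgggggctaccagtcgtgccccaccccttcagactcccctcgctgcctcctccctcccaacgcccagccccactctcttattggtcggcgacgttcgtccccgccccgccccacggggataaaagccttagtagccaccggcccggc
Neither holds the TGATNNAT motif searched above, and the CG dinucleotide occurs 15 times in the first and 17 times in the second. The strain variants inside these windows were not analysed here.

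Sash1, which encodes a scaffold protein of signalling and adhesion (chr10:8441970-8605868, mm9), gave 129 shares of 54.6, 52.5, 56.4 and 53.8% in clones 129, C2, G4 and E1.2. In mC3, mE6, mB4 and mG3 the shares were 18.1, 16.0, 19.1 and 14.7%. The spread within each set was small, with means of 54.3% ± 1.60 over the XX set and 17.0% ± 1.998 over the XY set (SD, n = 4 each), and the difference was 37.4 points (edgeR adjusted p = 0.000162). In the ES lines, with 1 library each, the share was 76.6% in F1-21.6 and 28.1% in F1-23. By allele, the Cast copy was at 104 ± 38.9 CPM in XX and 90.1 ± 8.08 CPM in XY clones (SD, n = 4 each), and the 129 copy at 123 ± 43.2 and 18.3 ± 1.95 CPM. The Cast copy overlapped between the sets and the 129 copy did not. The summed level did not pass (log2 change 1.07, SE 0.24, edgeR adjusted p = 0.067).

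Rgs16, a regulator that speeds the shutdown of G protein signals, had 129 shares of 69.6, 59.3, 69.3 and 56.1% in XX clones and 4.74, 5.23, 4.40 and 11.9% in XY clones. The sets were far apart, by 57.0 points (edgeR adjusted p = 0.014), and all 4 XY clones were monoallelic for Cast while no XX clone was monoallelic. Both ES lines were near equal use, at 56.3% in F1-21.6 and 47.8% in F1-23. The Cast copy was at 23.1 ± 20.1 CPM in XX and 312 ± 156 CPM in XY clones (SD, n = 4 each), while the 129 copy was at 46.5 ± 47.9 and 22.9 ± 17.6 CPM. The summed level varied widely among XX clones and did not pass (log2 change -2.26, SE 0.73, edgeR adjusted p = 0.127). The table's row for Rgs16 (chr1:155551410-155592598, mm9) starts well before the gene in GENCODE vM1, which begins at 155587479, so its counts may include sequence outside the annotated gene.

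Tshz2, a Teashirt zinc finger factor used in trunk and neural tissue, differed less but tightly. Its 129 shares were 44.9, 42.1, 43.3 and 43.7% in XX clones and 27.5, 30.0, 32.2 and 28.8% in XY clones, a difference of 13.9 points (edgeR adjusted p = 0.017). The sets did not overlap. Its level was 130 ± 37.2 CPM in XX and 44.7 ± 14.0 CPM in XY clones (SD, n = 4 each; edgeR adjusted p = 0.051), and the ES libraries had only 29 and 14 counts. Exact 95% Clopper-Pearson intervals of the single-clone shares were at most 2.01 points wide for Sash1, 4.99 for Rgs16 and 4.10 for Tshz2, and cover counting error only. Without single clones, the edgeR adjusted p of Sash1 was at most 0.00234, while that of Rgs16 reached 0.109 and that of Tshz2 0.129.

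**Figure D4:**
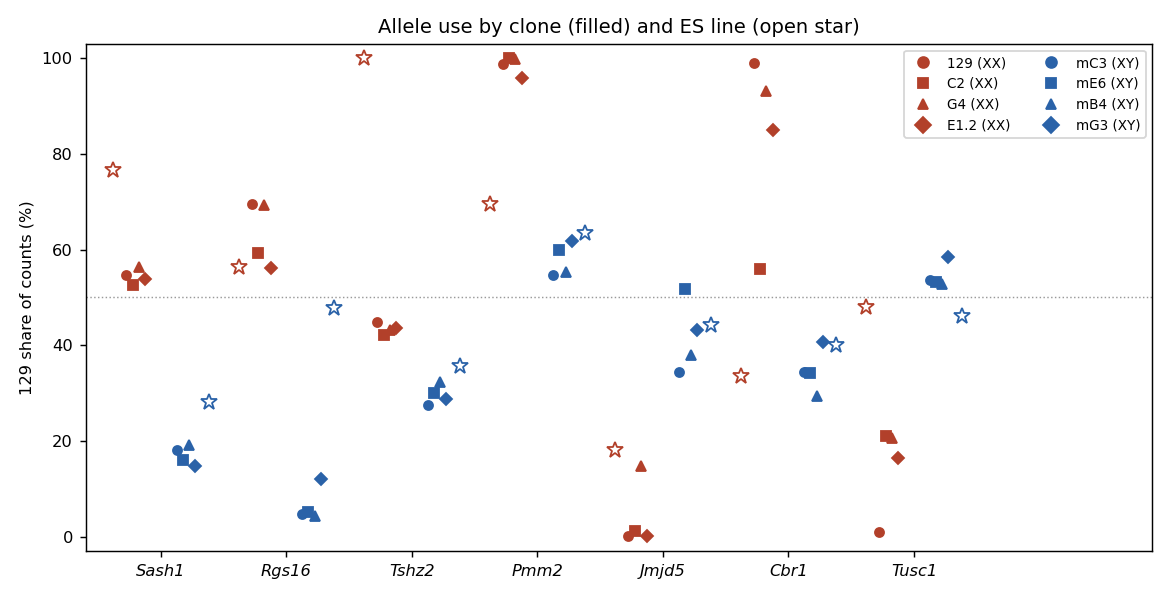
Share of counts from the 129 allele (percent) for 7 genes in XX clones (red) and XY clones (blue), with the ES line of each set as an open star; the dotted line marks equal use. Sash1, Rgs16 and Tshz2 passed the test, Pmm2 and Jmjd5 were monoallelic in all XX clones only, and Cbr1 and Tusc1, picked for lack of overlap, did not pass.

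A gene counted as monoallelic in 1 line set only where all 4 clones of a set had at least 85% of counts from the same allele and all 4 of the other set had at most 70% from either. This held for 4 genes of 11253 (0.0355%): Pmm2, Tmem186 and Jmjd5 in XX clones and Rgs16 in XY clones. Pmm2, the phosphomannomutase needed for protein glycosylation, and Tmem186, which encodes a mitochondrial membrane protein, are overlapping rows on opposite strands (chr16:8632706-8657617 and chr16:8633823-8637794, mm9) with nearly the same counts, so they are 1 measurement. The Pmm2 row starts well before the gene in GENCODE vM1, which begins at 8637767, and spans the Tmem186 row. In clone 129 the Tmem186 row held 5632 counts and the Pmm2 row 5919. Values printed for Pmm2 may therefore be mostly those of Tmem186. Pmm2 had 129 shares of 98.9, 99.98, 99.9 and 95.9% in XX clones and 54.7, 59.8, 55.4 and 61.7% in XY clones. The ES lines lay near the XY clones, at 69.5% and 63.4%. The difference of 40.8 points did not pass the allele test (edgeR adjusted p = 0.230).

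The level of the Pmm2 row differed as well. The sum was 85.7, 80.2, 70.6 and 63.3 CPM in XX clones and 117, 147, 130.4 and 144 CPM in XY clones (log2 change -0.84, SE 0.12, edgeR adjusted p = 0.035). The 129 copy was at 74.1 ± 10.7 CPM in XX and 78.1 ± 12.1 CPM in XY clones, and the Cast copy at 0.910 ± 1.197 and 56.3 ± 2.77 CPM (SD, n = 4 each). The 129 copy overlapped between the sets, and the Cast copy did not.

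Jmjd5, a member of the JmjC domain family (chr7:132588133-132606139, mm9), showed the mirror arrangement. Its 129 shares were 0.179, 1.25, 14.8 and 0.128% in XX clones and 34.4, 51.7, 37.9 and 43.1% in XY clones, a difference of -37.7 points (edgeR adjusted p = 0.361). Clone G4 was the only XX clone above 2%. The summed level was 4.22 to 8.09 CPM in XX and 11.8 to 15.9 CPM in XY clones (log2 change -1.21, SE 0.22, edgeR adjusted p = 0.047). Here the Cast copy was at 5.95 ± 1.905 and 8.15 ± 0.540 CPM and the 129 copy at 0.179 ± 0.298 and 6.02 ± 1.85 CPM (SD, n = 4 each). In the ES lines the share was 18.01% in F1-21.6 and 44.1% in F1-23.

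**Figure D5:**
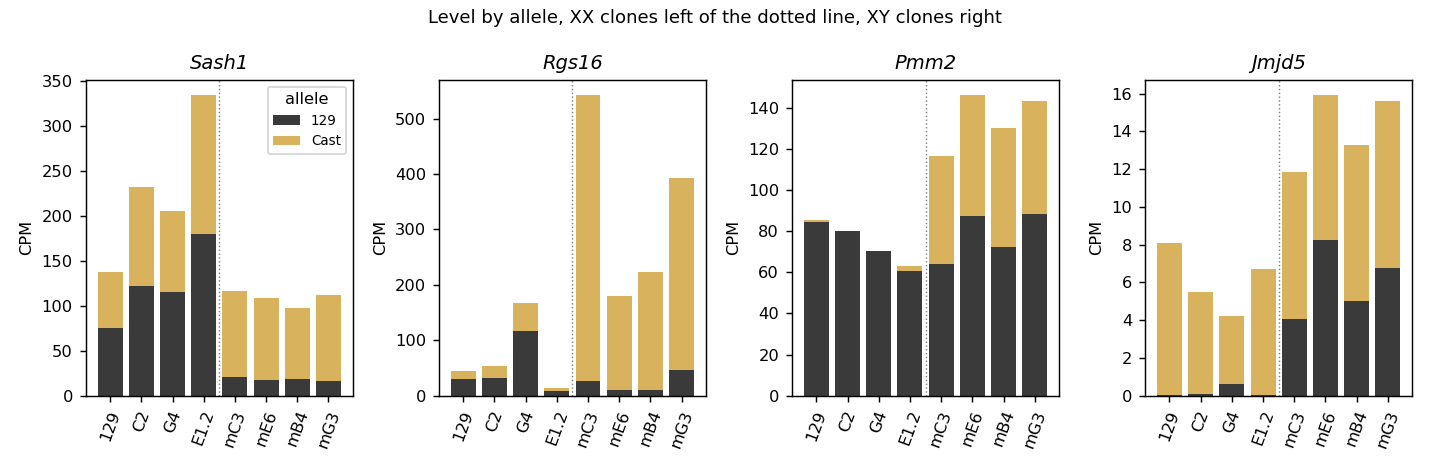
Level of Sash1, Rgs16, Pmm2 and Jmjd5 (CPM, bars from 0) in each clone, split into counts from the 129 allele (dark) and the Cast allele (yellow). In Sash1 the XY clones lack most of the 129 part, in Rgs16 the Cast part is larger in XY clones, and in Pmm2 and Jmjd5 the part of 1 allele is nearly missing in XX clones.

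Other large shifts, picked among genes without overlap between the sets, did not pass and are given as values. Cbr1, carbonyl reductase, had 129 shares of 99.1, 56.0, 93.1 and 85.002% in XX clones and 29.4 to 40.8% in XY clones (edgeR adjusted p = 0.403). Tusc1 had 0.870 to 21.1% in XX and 52.8 to 58.5% in XY clones (edgeR adjusted p = 0.394). The ES lines F1-21.6 and F1-23 had 33.6 and 40.0% for Cbr1 and 47.9 and 46.1% for Tusc1. Of 129 genes that were called in level and also tested for allele use, none was called for allele use, against 0.0267% of all tested genes. A difference of at least 20 points was found for 5, namely Pmm2, Tmem186, Jmjd5, Cd44 and Agpat9, against 2.05% of all tested genes. Pmm2 and Tmem186 among them are 1 measurement. Cd44, a hyaluronan receptor, was lower in XX clones (log2 change -0.78, SE 0.15, edgeR adjusted p = 0.04998), but its 129 share of 99.9, 40.3, 41.8 and 88.3% split the XX clones among themselves.

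Imprinted genes, which are expressed from the copy of 1 parent, gave 26 tested genes. None passed the allele test in edgeR, beside 7 of the 26 at unadjusted p under 0.05, against 8.74% of all tested genes. Their median difference without sign was 11.3 points, against 1.93 points for all tested genes. Sgce had the smallest p, with a 129 share of 93.8, 43.8, 7.88 and 42.9% in XX clones against 0.107 to 2.97% in XY clones (edgeR adjusted p = 0.394). The XX clones covered nearly the whole range, so no single value describes that set.

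Allele use was also summed over the autosomes. Monoallelic calls were 6.69 to 8.37% of testable genes in XX and 5.83 to 6.95% in XY clones. Of these calls, 48.7% ± 2.10 were for the 129 allele in XX and 47.6% ± 2.39 in XY clones (SD, n = 4 each), a difference of 1.05 points (exact two-sided permutation test over 70 splits, p = 0.486; the smallest possible p is 0.0286). The median 129 share per autosome, over 10006 genes, was between 49.3 and 50.8% in every clone. The largest difference between the sets was -0.26 points on chromosome 6, with overlap of the clones. On chromosome 7 the sets did not overlap, at 49.944 to 50.29% in XX and 49.79 to 49.942% in XY clones, a difference of 0.21 points at the smallest possible exact permutation p of 0.0286. Adjusted over the 19 autosomes this is 0.543, so no single autosome could have passed. Median log2 changes of level per autosome ran from -0.05 on chromosome 16 to 0.08 on chromosome 18.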

How the data were processed

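RNA of 8 NPC clones and 2 ES lines was sequenced as paired reads from polyadenylated RNA. The authors deposited, per the file headers, per gene and library the allele-informative counts, the 129 ratio (printed here as a share in percent) and FPKM values. The submitters' processing notes name the build mm9 and the tools SAMtools, Cufflinks 1.3.0 and TopHat 1.4.0; which step each served is not given in the sources used here. A repeat library of C2 and one of mC3 were not analysed here. Levels were tested on counts with edgeR 4.0.16 (TMM, filterByExpr, quasi-likelihood) over the whole table, and allele shares on allele counts of genes with at least 20 counts per clone. Allele counts were the ratio times the count, whole within 0.01. DESeq2 1.42.0 and limma 3.58.1 on log2(FPKM + 1) were alternatives. Joined rows were kept. P-values measure the spread between clones, each with 1 library. Named genes were called list members, genes called for allele share and the 10 largest called changes per direction. Those 10 were taken among genes at 10 CPM or more in the higher set and without overlap between the sets. List members that missed the threshold were named after their values were seen. Tests were tried on simulated data. Members and gene lists were chosen with earlier results of these data known. Some genes are not reported here.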

Additional observations from a re-analysis of the deposited data

Results flagged for a closer look

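Among 80 groups of 4 clones checked, 4 held a clone far from the other 3 by Dixon's 95% criterion, which chance gives in about 1 in 20 groups. Agpat9 stood at 3.86 CPM in mB4, above the other XY clones. The 129 share of Rgs16 was 11.9% in mG3, above the other XY clones. The 129 share of Tusc1 was 58.5% in mG3, again above the other XY clones. The 129 share of Jmjd5 was 14.8% in G4, above the other XX clones.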

How the results depend on the processing

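The 151 level calls became 1859 with DESeq2, 490 on log2(FPKM + 1) and 445 on log2(FPKM + 0.1), and ran from 6 to 457 when 1 clone was left out. The 3 allele calls became 9 with X genes included and ran from 1 to 8 without single clones. Hindbrain and spinal cord calls went from 8 to 15 with DESeq2 and from 2 to 14 without single clones. Forebrain, midbrain and dorsal calls went from 0 to 3, 2 and 3 with DESeq2 and to 1 each with either FPKM pseudocount, ventral calls to 1 with DESeq2, and forebrain and midbrain calls ranged from 0 to 1 without single clones. Genes monoallelic in 1 line set only fell from 4 to 2 at a major allele of 95 percent. Hoxa3 turned to -0.68 and -0.76 on the FPKM scale. The causes were not tested. No paired analysis was possible because clone names do not pair clones of the lines. Low-count Hox genes and Tusc1, with intervals up to 17.3 points wide, are limited by depth.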
